A study of Mus musculus with 24 samples.

Results

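Chaperones of the endoplasmic reticulum (ER) fold the proteins that a cell secretes or places in its membranes. The 7 genes described here are Hspa5, Hsp90b1, Calr, Canx, Hyou1, Creld2 and Manf. They were selected by name, as every probe set of the array whose annotated symbol is one of the 7. This gave 7 of the 8251 genes with a symbol of their own, and 8 of 12422 probe sets, 1 for each gene except Canx, which had 2. Of these, 6 probe sets of 5 genes could be tested. Calr and Hyou1 could not, because they stood at the lowest value of the table, 0.01, on some arrays.

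The study used 24 oligonucleotide arrays to follow messenger RNA in 5 lines of mouse fibroblasts, as 12 groups of 2 arrays. On 12 of the arrays, wild-type, ATF4-/- and PERK-/- cells were either untreated or given 2 ug/ml tunicamycin, an inhibitor of N-linked glycosylation that causes ER stress. Treatment lasted 6 h in wild-type and ATF4-/- cells, and the labels give no duration for PERK-/- cells. The other 12 arrays were of lines that express Fv2E-PERK, a chimera whose kinase is switched on by the dimerizer AP20187, with no agent that unfolds proteins. The line called SS carries wild-type eIF2alpha and lacks PERK itself. This PERK-/- background was used because clones with high transgene expression could not be had in wild-type cells. The line called AA carries mutant eIF2alpha, a form that the kinase cannot phosphorylate, and its PERK status is not stated. Each of these lines was sampled without the dimerizer and at 4 h and 8 h of it; its labelled dose reads 2 nm. How many clones stand behind a line is not stated, nor is it whether separate cultures supplied the paired arrays of a group. If they did not, the spread behind each p-value is technical.

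ER stress is sensed by PERK, IRE1 and ATF6. PERK phosphorylates eIF2alpha, which slows protein synthesis and raises the transcription factor ATF4. IRE1 makes the active form of XBP1, and cleaved ATF6 enters the nucleus. Together with the CCAAT-binding factor NF-Y, ATF6 binds a promoter sequence known as the ER stress response element, which was described first in genes of ER chaperones. The array comparisons bear on how far the messages of these chaperones follow ER stress itself, and how far the PERK branch alone.

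The element was looked for in RefSeq promoter windows (mouse assembly GRCm38.p6), which run from 250 bases before the annotated start of a gene to 50 bases after it. It was spelled as CCAAT, then any 9 bases, then CCACG, on either strand. Of the 7 genes, 5 had a window, and Manf and Hyou1 had none. All 5 held at least 1 exact copy, against 39 of all 32851 windows (0.119%), and all 6 copies lay before the start. The 39 include the windows of these 5 genes. Since the element was described first in genes of ER chaperones, its presence here is not an independent result. The copies are shown because they are what these promoters share. Each is given on the gene's own strand with 10 bases on either side, and the capitals mark the element. In Hspa5 it lies at chr2:34772025-34772043, 65 to 47 bases before the start, in the gene's orientation. Hsp90b1 has 2 copies, at chr10:86705638-86705656 and, in the opposite orientation, at chr10:86705533-86705551. The Calr copy at chr8:84847075-84847093 and the Creld2 copy at chr15:88819520-88819538 are in the opposite orientation. The Canx copy at chr11:50325800-50325818 is in the orientation of the gene.
Hspa5: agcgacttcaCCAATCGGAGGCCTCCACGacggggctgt
Hsp90b1, upstream copy: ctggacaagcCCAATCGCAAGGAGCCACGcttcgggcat
Hsp90b1, downstream copy: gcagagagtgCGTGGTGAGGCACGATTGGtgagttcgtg
Calr: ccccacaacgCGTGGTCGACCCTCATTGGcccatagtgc
Canx: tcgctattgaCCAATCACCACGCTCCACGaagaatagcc
Creld2: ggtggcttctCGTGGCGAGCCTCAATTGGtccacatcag

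The whole stretch of 250 bases before Hspa5 (chr2:34771840-34772089, plus strand) is printed for context. Hspa5 encodes BiP, the HSP70 family member of the ER lumen and the usual marker of ER stress. The capitals mark its exact copy of the element.
Hspa5 upstream region: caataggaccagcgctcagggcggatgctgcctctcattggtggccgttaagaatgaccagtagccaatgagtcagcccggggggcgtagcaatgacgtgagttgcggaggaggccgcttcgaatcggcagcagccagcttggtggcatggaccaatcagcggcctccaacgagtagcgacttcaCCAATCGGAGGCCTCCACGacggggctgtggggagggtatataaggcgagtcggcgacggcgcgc

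3 other sequences were searched on both strands and were found in 0 of the 5 windows. These were the ER stress response element II (ATTGG, any 1 base, CCACG), present in 0.0365% of all windows, the XBP1 and ATF6 element TGACGTGG (0.676%), and the composite site for C/EBP and ATF factors, TGATGNAAT (0.965%). A missing match says only that these letters are not in this window. The plot of element positions shows that the copies lie at different distances from the start.

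**Figure D1:**
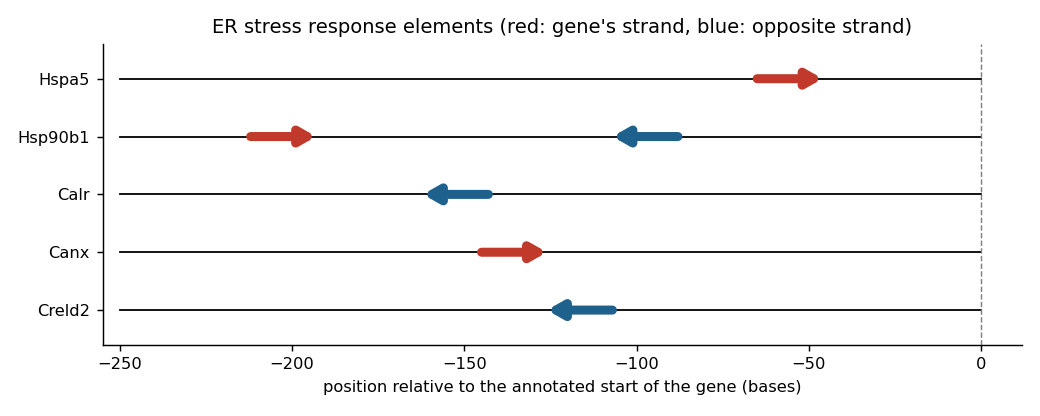
Exact ER stress response elements in the 250 bases before the annotated start of 5 chaperone genes; the horizontal axis is the position in bases relative to the start, and each arrow is 1 copy pointing along the strand that carries it. Hsp90b1 has 2 copies, and the Hspa5 copy, 65 to 47 bases before the start, is the nearest to it.

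In the deposited table each value is a ratio of a probe set to about its own median over the 24 arrays. The level of one gene can therefore not be set against that of another. Ratios of the tunicamycin set and the Fv2E-PERK set are likewise kept apart. On each tunicamycin array 22.6% to 25.6% of the probe sets stood at the floor of 0.01, against 0.00805% to 0.105% on each Fv2E-PERK array. The 2 arrays of a group correlated at 0.711 to 0.785 across probe sets on the tunicamycin arrays, and at 0.675 to 0.932 on the others, AA at 8 h being the lowest. Of 11 fibroblast markers, 9 were above the floor on all 12 tunicamycin arrays, as were 1 of 4 epithelial, 2 of 4 blood and macrophage and 1 of 3 endothelial markers. A gene with several probe sets was counted by the one least often at the floor. Of the genes so counted, Pdgfra, Cd68 and Csf1r had another probe set at the floor on 9, 12 and 1 of these arrays. Ratios give no absolute level, so the cell type cannot be checked further. The label of the ATF4-/- line was checked on Atf4 itself, whose ratios were 0.170 and 0.133 in untreated ATF4-/- cells and 0.769 and 0.745 in wild-type cells. Eif2ak3, which encodes PERK, read 0.398 and 0.241 in untreated PERK-/- cells against 1.91 and 0.0222 in wild-type cells, which overlapped (log2 difference -0.44 ± 0.58). Untreated ATF4-/- cells read higher, at 0.871 and 1.01. After tunicamycin PERK-/- cells read 0.987 and 0.556, below the 2.26 and 1.97 of wild type. Where its probes lie relative to the deleted part of the gene is not stated.

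Tunicamycin raised 4 chaperone messages in wild-type cells. These were Hspa5, Hsp90b1, Creld2 and Manf, and Creld2 had the largest estimate. The same 4 rose in ATF4-/- cells, and no difference from the wild-type rise passed the test. In PERK-/- cells Hspa5 and Hsp90b1 rose, and the response of Creld2 was smaller than in wild type. In the SS line, AP20187 raised stress genes of the ATF4 pathway. There 0 of the 6 tested chaperone probe sets passed, a count near the share of all probe sets that did, 8.98% at 4 h and 12.4% at 8 h.

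Hspa5 ratios in wild-type cells were 1.07 and 0.788 untreated and 2.54 and 2.38 after tunicamycin. In ATF4-/- cells they were 0.519 and 0.724 before and 1.75 and 1.78 after treatment. In PERK-/- cells they went from 0.375 and 0.45 to 1.36 and 1.26. In each of the 3 lines both treated arrays lay above both untreated arrays, as they did for 22.1%, 25% and 15% of all tested probe sets in wild-type, ATF4-/- and PERK-/- cells. The means rose 2.65-fold in wild-type, 2.84-fold in ATF4-/- and 3.18-fold in PERK-/- cells. On the log2 scale used for testing (log2 of the ratio plus 0.247) the rises were 1.21 ± 0.17 (SE), 1.22 ± 0.17 and 1.24 ± 0.17, with adjusted p = 0.000903, 0.00116 and 0.00877 by limma. The PERK-/- call was lost with quantile normalization (adjusted p = 0.116) and with the tunicamycin arrays fitted alone (0.126). The rise in PERK-/- cells differed from that in wild type by 0.03, with a 95% interval of -0.49 to 0.55. For ATF4-/- cells that difference was 0.01, with an interval of -0.50 to 0.53. These intervals leave room for a difference of about 0.5 in either direction.

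Hsp90b1 encodes the HSP90 family member of the ER lumen, a chaperone of receptors and secreted proteins. In wild-type cells its ratios went from 1.43 and 1.31 up to 2.89 and 2.73. They were 1.11 and 1.09 before and 1.94 and 2.10 after treatment in ATF4-/- cells, and 0.663 and 0.618 before and 1.48 and 1.75 after it in PERK-/- cells. Every treated array lay above every untreated array of its line, as for 22.1%, 25% and 15% of all tested probe sets in those lines. The means rose 2.05-fold, 1.84-fold and 2.52-fold in wild-type, ATF4-/- and PERK-/- cells. In log2 terms these were 0.92 ± 0.13, 0.75 ± 0.13 and 1.06 ± 0.13 (SE), with adjusted p = 0.00123, 0.00828 and 0.00534 in limma. In the ATF4-/- line the call was lost when the second untreated array (adjusted p = 0.0508) or the second treated array (0.0728) was left out, and with the tunicamycin arrays fitted alone (0.146). The PERK-/- call of Hsp90b1 was lost with quantile normalization (adjusted p = 0.116) and with the tunicamycin arrays fitted alone (0.131).

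Creld2 encodes a protein with EGF-like domains that resides in the ER and is also secreted. Its ratios went from 0.722 and 0.548 to 4.63 and 6.12 in wild-type cells, and from 0.504 and 0.518 to 3.97 and 4.20 in ATF4-/- cells. Cells without PERK went from 0.474 and 0.358 to 1.09 and 0.841. The means rose 8.46-fold in wild type and 8.00-fold without ATF4, and the treated mean was 2.32 times the untreated one without PERK. As log2 differences these were 2.67 ± 0.18 (adjusted p = 5.87e-07), 2.52 ± 0.18 (2.21e-06) and 0.87 ± 0.18 (0.0626) by limma, so the last missed the threshold of 0.05. In PERK-/- cells Creld2 passed with a smaller pseudocount (1.10, adjusted p = 0.0251 in limma) and with array medians centred (0.88, 0.0383). It also passed there with no floor filter (0.87, adjusted p = 0.0306 in limma). Its response in PERK-/- cells was smaller than in wild type (log2 difference -1.80 ± 0.25, 95% interval -2.34 to -1.26, adjusted p = 0.00432 by limma). Creld2 was 1 of 34 probe sets that passed this test, and the treatment time of PERK-/- cells is not stated. With a model fitted to the 12 tunicamycin arrays alone the same difference had an adjusted p of 0.113, and after quantile normalization, with a difference of -1.77, an adjusted p of 0.173. For ATF4-/- against wild type the difference was -0.15, with an interval of -0.69 to 0.39.

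Manf encodes a small factor that is retained in the ER, is released under stress and acts as a survival factor for neurons. In wild-type cells its ratios were 1.0 and 0.628 before and 3.57 and 3.91 after tunicamycin. They were 0.360 and 0.575 before and 2.79 and 2.84 after it in ATF4-/- cells, and 0.262 and 0.205 before and 0.850 and 0.744 after it in PERK-/- cells. All treated arrays stood above the untreated ones of the same line, as for 22.1%, 25% and 15% of all tested probe sets in those lines. However, treated PERK-/- cells reached only the range of untreated wild-type cells. The means rose 4.59-fold in wild-type and 6.02-fold in ATF4-/- cells, and the treated mean was 3.41 times the untreated one in PERK-/- cells, where the untreated mean lies below the pseudocount and the fold is rough. In log2 terms the differences were 1.93 ± 0.23, 2.12 ± 0.23 and 1.12 ± 0.23 (SE), with adjusted p = 0.000318, 0.00016 and 0.0626 by limma. In PERK-/- cells Manf passed with a smaller pseudocount (1.54, adjusted p = 0.0251 in limma) and with array medians centred (1.14, 0.0359). The PERK-/- response was smaller than that of wild type in its estimate (difference -0.81 ± 0.33, adjusted p = 0.397 in limma), with an interval of -1.51 to -0.11. It did not pass the test, and the interval holds both a small and a large reduction. The pseudocount understates a rise from so low a start. With the smaller pseudocount the rise was 2.15 in wild-type and 1.54 in PERK-/- cells.

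Canx encodes calnexin, a lectin chaperone that sits in the ER membrane and binds glycoproteins with trimmed sugar chains. Its 2 probe sets did not follow each other: over the 12 tunicamycin arrays their log2 values correlated at 0.104. With the probe set 160180_at the ratios of wild-type cells went from 2.28 and 1.61 to 2.54 and 2.74, and were 1.88 and 1.83 before and 3.26 and 3.04 after treatment in ATF4-/- cells. Without PERK, 160180_at overlapped between untreated (1.26 and 1.75) and treated arrays (1.73 and 2.29). Its log2 differences were 0.41 ± 0.20, 0.69 ± 0.20 and 0.37 ± 0.20 in the 3 lines, and none passed (adjusted p = 0.373, 0.12 and 0.613, limma). With 94886_at the 2 untreated wild-type arrays read 0.991 and 2.44, a wider gap than between any treated and untreated mean of that probe set. Its differences were 0.52 ± 0.29, -0.10 ± 0.29 and 0.37 ± 0.29, with adjusted p = 0.482, 0.947 and 0.792. Without the second untreated wild-type array the wild-type difference became 1.08 (adjusted p = 0.0466), and without the first it was -0.04. The promoter window of Canx holds an exact ER stress response element, as do those of Hspa5, Hsp90b1, Calr and Creld2.

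Calr encodes calreticulin, the soluble relative of calnexin in the ER lumen. Wild-type cells had Calr ratios of 2.49 and 0.01 before tunicamycin against 7.96 and 7.34 with it, so 1 untreated array was at the floor. In ATF4-/- cells they were 0.928 and 1.32 before and 2.29 and 3.72 after tunicamycin, without overlap, as for 25% of all tested probe sets. Of the 4 PERK-/- arrays, 3 were at the floor and the last, a treated one, read 1.38. With the floor values kept in the test the log2 differences were 3.23 ± 0.95, 1.22 ± 0.95 and 1.33 ± 0.95 (adjusted p = 0.113, 0.773 and 0.765 by limma). Treated wild-type cells had the highest Calr ratios of the tunicamycin arrays, and the floor leaves no measured level for most PERK-/- arrays. Hyou1, which encodes a large HSP70-related protein that exchanges nucleotide on BiP, was listed at 0.01 on all 12 tunicamycin arrays and gives no comparison there.

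**Figure D2:**
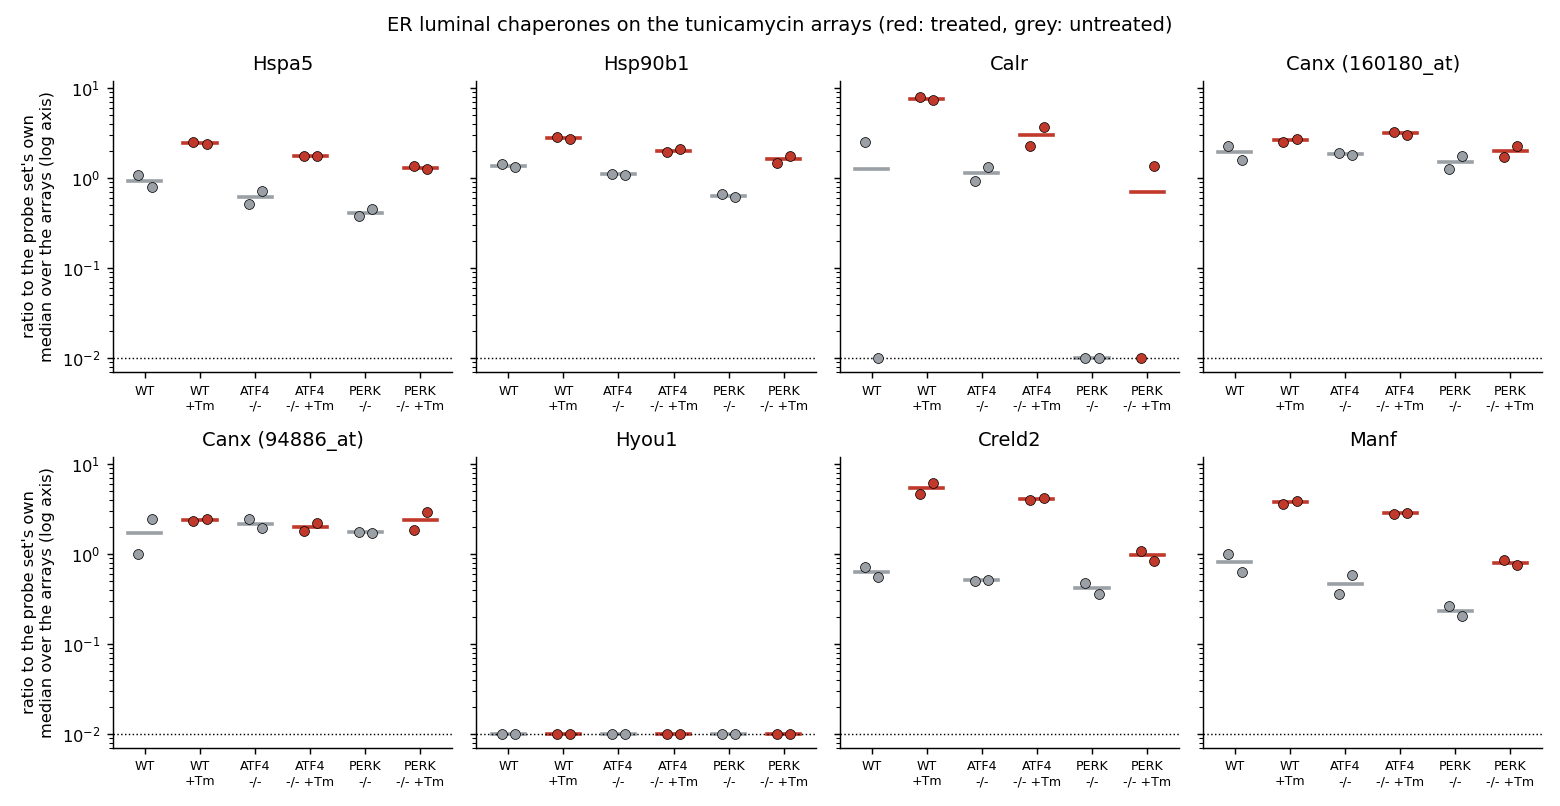
Ratio of each of the 8 chaperone probe sets to about its own median, on a log axis, for the 6 groups of tunicamycin arrays; points are single arrays, horizontal bars are group means, and the dotted line is the floor of 0.01. Treated arrays of Hspa5, Hsp90b1, Creld2 and Manf lie above the untreated arrays in each line, as those of 22.1%, 25% and 15% of all tested probe sets do in the 3 lines, Creld2 reaches 6.12 in wild-type but 1.09 in PERK-/- cells, and Hyou1 lies at the floor throughout.

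In the wild-type response 4 of the 6 tested chaperone probe sets passed the test, all higher, against 2.81% of all 7369 probe sets tested. The median log2 difference was 1.06 for the 6 and 0.02 for all. In ATF4-/- cells 4 of 6 passed, all higher, where 1.15% of all did, with a median of 0.98. In PERK-/- cells 2 of 6 passed, both higher, where 0.231% of all did, with a median of 0.97. That count is the least stable of the 3: it was 4 with a smaller pseudocount or with array medians centred, and 0 with quantile normalization or with the tunicamycin arrays fitted alone. The difference between the ATF4-/- and wild-type responses passed for 0 of 6 (0.0543% of all, 4 probe sets in limma, 510 at an unadjusted p under 0.05). The difference between the PERK-/- and wild-type responses passed for 1 of 6, Creld2, with 0.461% of all.

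Before treatment the lines already differed. Untreated PERK-/- cells had less Hspa5, Hsp90b1 and Manf than untreated wild-type cells, by 2.25-fold, 2.14-fold and 3.49-fold. The log2 differences were -0.83 ± 0.17 (adjusted p = 0.00994), -0.87 ± 0.13 (0.00122) and -1.12 ± 0.23 (0.0099) in limma. Creld2 was lower by 0.41 ± 0.18 without passing (adjusted p = 0.221). So 3 of 6 chaperone probe sets passed, all lower, where 4.99% of all tested probe sets did. Without the first untreated wild-type array only 1 of these calls remained, that of Hsp90b1, since Hspa5 and Manf then had an adjusted p of 0.0924 each. Hspa5 also lost its call without the first untreated PERK-/- array (0.0601) and with the tunicamycin arrays fitted alone (0.0555), and Manf without the second untreated PERK-/- array (0.0669). With quantile normalization the count was also 1. Calr gave no measured difference here, since both untreated PERK-/- arrays and 1 of the 2 wild-type arrays stood at 0.01.

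In untreated ATF4-/- cells 0 of 6 chaperone probe sets passed against untreated wild type (0.869% of all passed, 64 in limma and 710 at an unadjusted p under 0.05). For 4 of the 6, however, both ATF4-/- arrays lay below both wild-type arrays, as 16.6% of all probe sets did. Hspa5 was lower by 0.44 ± 0.17 and Manf by 0.56 ± 0.23, with adjusted p = 0.363 and 0.412. Among treated cells the order of the means was the same for 4 genes, with wild type highest, ATF4-/- next and PERK-/- lowest and no overlap between neighbours, an order that 2.99% of all tested probe sets showed. Canx had another order with both of its probe sets, ATF4-/- cells being highest with 160180_at and PERK-/- cells with 94886_at. For Hspa5 these means were 2.46, 1.77 and 1.31, and for Hsp90b1 2.81, 2.02 and 1.61. For Creld2 they were 5.37, 4.09 and 0.965, and for Manf 3.74, 2.82 and 0.797. Differences between treated groups were not tested.

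**Figure D3:**
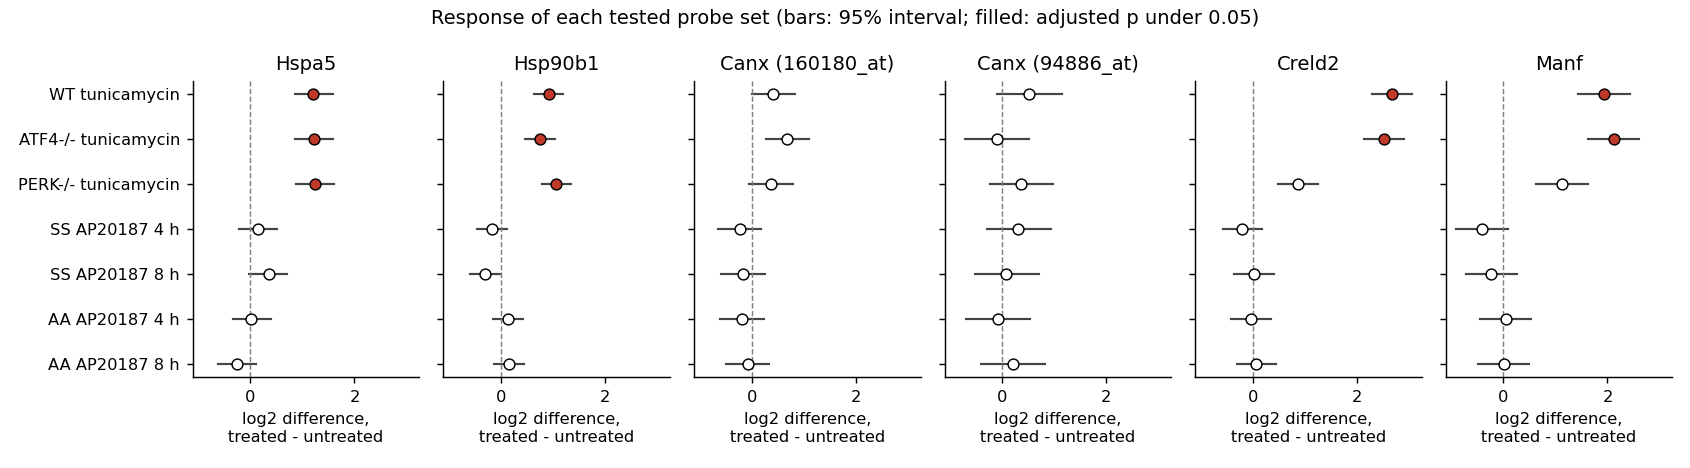
Log2 difference between treated and untreated cells for the 6 tested chaperone probe sets in each of 7 responses; points are limma estimates on the log2 scale with a pseudocount of 0.247, bars are 95% intervals, and filled points have an adjusted p under 0.05. Filled points occur in the tunicamycin responses only, 4 in wild type, 4 in ATF4-/- and 2 in PERK-/-.

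Activation of Fv2E-PERK in the SS line left the chaperone messages without a called change. At 4 h 0 of 6 chaperone probe sets passed, where 8.98% of all 7369 did, and at 8 h 0 of 6, where 12.4% did. By limma 662 and 916 probe sets passed, and 1660 and 1851 had an unadjusted p under 0.05. With 6 probe sets, a count of 0 is near these shares. Known targets of the pathway rose on the same arrays. Ddit3, which encodes the stress transcription factor CHOP, started from ratios of 0.737 and 0.823 in SS cells. It reached 3.10 and 3.83 after 4 h of AP20187, and 4.94 and 5.23 after 8 h. It rose by 1.85 ± 0.25 at 4 h and 2.38 ± 0.25 at 8 h on the log2 scale (adjusted p = 0.000325 and 3.48e-05, limma). Atf4 rose by 0.80 ± 0.15 and 1.04 ± 0.15, and Herpud1, a component of ER-associated degradation, by 1.81 ± 0.28 and 1.38 ± 0.28.

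Hspa5 in SS cells started from ratios of 0.801 and 1.03. Both 4 h arrays read 1.03, and those taken after 8 h read 1.04 and 1.44. At 8 h both arrays were above both untreated ones, by a small margin, as they were for 33.8% of all tested probe sets. The log2 differences were 0.14 ± 0.17 at 4 h and 0.35 ± 0.17 at 8 h, the latter with an interval of -0.02 to 0.71 and an adjusted p of 0.222 by limma. The upper bound lies below the lower bound of the wild-type tunicamycin rise, 0.85, but the 2 responses were measured in different lines and their difference was not tested. Hsp90b1 estimates had the other sign, with ratios going from 0.780 and 0.861 to 0.715 and 0.684 at 4 h and 0.567 and 0.671 at 8 h. Its difference was -0.17 ± 0.13 at 4 h and -0.30 ± 0.13 at 8 h (adjusted p = 0.163). After quantile normalization the 8 h value was -0.62 with an adjusted p of 0.0274, the one chaperone call in this line under any setting tried.

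Creld2, which had the largest tunicamycin response of the tested members, started from 1.45 and 1.58 in SS cells, stood at 1.21 and 1.38 after 4 h, and ended at 1.51 and 1.57. Its difference at 8 h was 0.02 ± 0.18, with an interval of -0.36 to 0.40. Manf started from 0.844 and 1.28, stood at 0.648 and 0.809 after 4 h, and ended at 0.728 and 1.0. Its 8 h difference was -0.23 ± 0.23, with an interval of -0.72 to 0.27. At 4 h both treated arrays of 4 probe sets (Hsp90b1, Canx 160180_at, Creld2 and Manf) lay below both untreated arrays, as 29.8% of all probe sets did. The Canx probe sets differed by -0.17 ± 0.20 and 0.08 ± 0.29 at 8 h. Calr ratios overlapped between the groups, with 0.0965 and 0.591 for the start against 0.604 and 0.144 for the 8 h arrays. Hyou1, measured on all Fv2E-PERK arrays, started from 0.228 and 0.180 in SS cells, stood at 0.237 and 0.163 after 4 h, and ended at 0.259 and 0.195, with overlap throughout.

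In the AA line 0 of 6 chaperone probe sets passed at 4 h or at 8 h, where 0% of all probe sets passed at either time, by limma (168 and 344 had an unadjusted p under 0.05). Hspa5 ratios began at 0.799 and 0.973, stood at 0.885 and 0.916 after 4 h, and ended at 0.649 and 0.750. The 8 h arrays were the lowest of the 6, and the difference was -0.26 ± 0.17 (adjusted p = 1). For 19.7% of all tested probe sets both 8 h arrays lay below both untreated ones, and for 14.1% above. Creld2 went from 0.912 and 0.884 to 0.809 and 1.12 over 8 h, and Manf from 1.5 and 1.18 to 1.5 and 1.2. Both overlapped between the groups. Hyou1 began at 0.533 and 0.523, stood at 0.480 and 0.526 after 4 h, and ended at 0.745 and 1.94. The 8 h arrays were above the rest but stood apart from each other, and the log2 difference of 0.93 ± 0.25 did not pass (adjusted p = 0.364 over the 12384 probe sets never at the floor on Fv2E-PERK arrays). Calr behaved likewise on the second AA 8 h array, which read 3.25 against 1.07 on the first. Array pairs of this group correlated least of all groups.

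The response of AA cells minus that of SS cells passed for 0 of 6 chaperone probe sets at 4 h (1.29% of all passed, 95 by limma and 937 at an unadjusted p under 0.05). At 8 h it also passed for 0 of 6 (5.35% of all, 394 by limma and 1487 at an unadjusted p under 0.05). Among the 6, Hspa5 had the 8 h difference farthest from 0, -0.61 ± 0.24, with an interval of -1.12 to -0.09 and an adjusted p of 0.164. Hsp90b1 had 0.46 ± 0.19 in the other direction, with an adjusted p of 0.178. Hyou1, tested with the floor filter set within the Fv2E-PERK arrays, had 0.86 ± 0.35 (interval 0.11 to 1.61, adjusted p = 0.24, limma). With quantile normalization Hspa5 and Hsp90b1 passed, at -1.10 for Hspa5 and 0.91 for Hsp90b1. Before AP20187 the lines differed in 1 of 6, where 14.7% of all probe sets passed: Creld2 was 1.69-fold lower in AA than in SS cells (-0.62 ± 0.18, adjusted p = 0.0277, limma). This call was lost when any 1 of the 4 arrays was left out, with adjusted p from 0.0769 to 0.151. Hyou1 was higher in untreated AA cells by 0.78 ± 0.25 (adjusted p = 0.0599), without overlap of the arrays. Of all tested probe sets 29.2% were higher there without overlap.

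**Figure D4:**
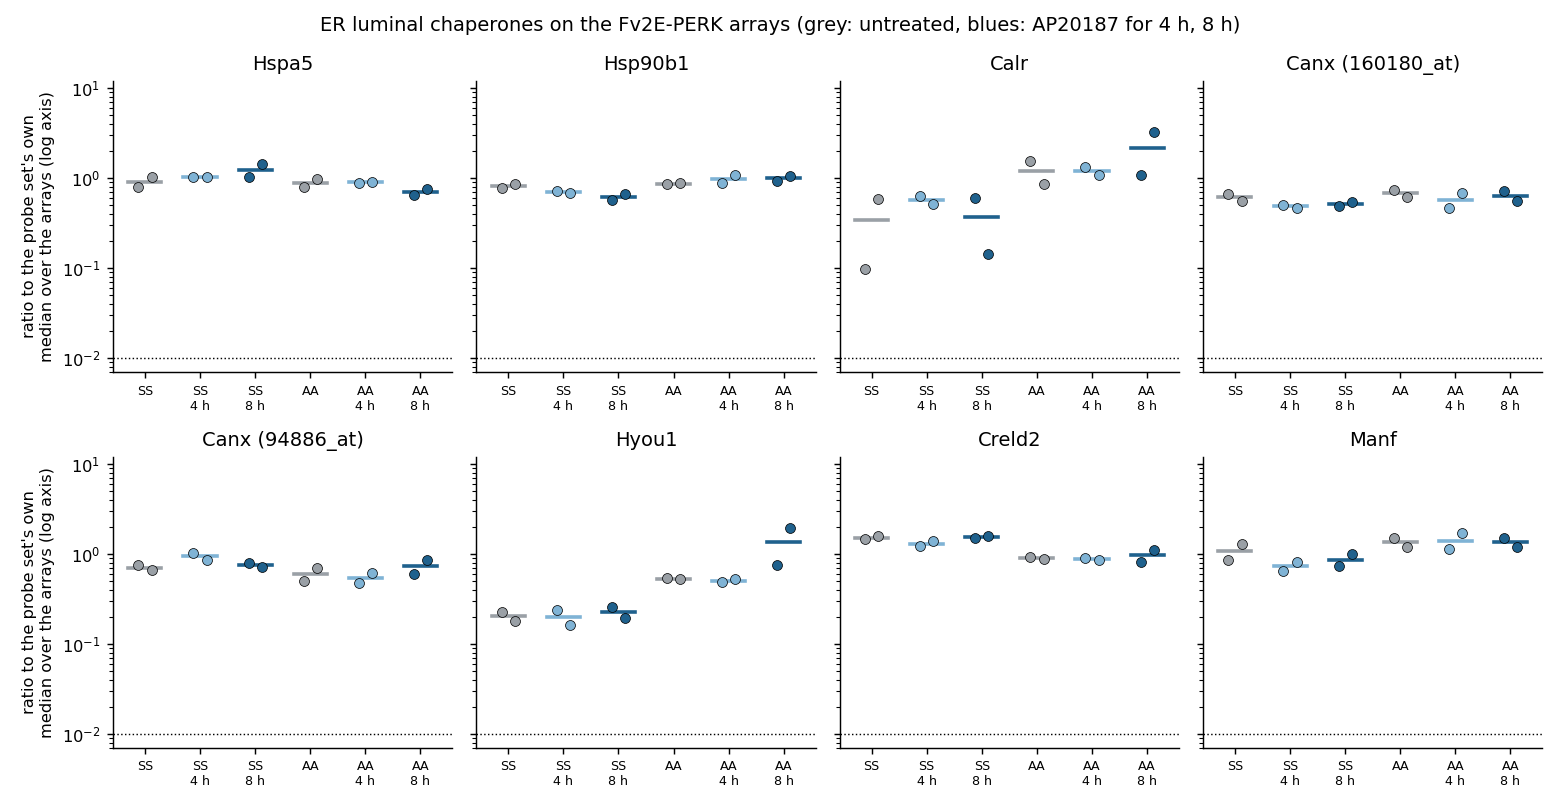
Ratio of each of the 8 chaperone probe sets to about its own median, on a log axis, for the 6 groups of Fv2E-PERK arrays; points are single arrays, horizontal bars are group means, and the dotted line is the floor of 0.01. At 8 h Hspa5 reads 1.04 and 1.44 in SS cells and 0.649 and 0.750 in AA cells. Hsp90b1 goes from 0.780 and 0.861 to 0.567 and 0.671 in SS cells, and the 8 h AA arrays of Hyou1 read 0.745 and 1.94.

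The members were set beside other genes of ER folding, from a list of 29 genes with a probe set, of which 27 genes with 35 probe sets could be tested. In wild-type cells tunicamycin raised 8 of these genes and lowered 0, and the list's median log2 difference was 0.63. Its 14 called probe sets became 8 without the second untreated wild-type array, and also 8 with quantile normalization. Dnajc3 (probe set 102415_r_at), which encodes a co-chaperone of BiP, rose by 2.22 ± 0.25. Dnajb9 (96679_at), another BiP co-chaperone of the J-domain family, rose by 2.74 ± 0.34, Ero1b, an oxidase that feeds disulfide formation, by 1.96 ± 0.23, and Pdia6 (94207_at), a disulfide isomerase, by 1.33 ± 0.17. In ATF4-/- cells 5 genes rose and 0 fell. In PERK-/- cells 1 rose, P4hb, the classical disulfide isomerase, by 1.5 ± 0.28, and this call was lost without the second treated array (1.05, adjusted p = 0.125) and without either untreated array. The list's 1 called probe set in PERK-/- cells became 5 with the smaller pseudocount, 3 with array medians centred and 2 with no floor filter, and 0 with quantile normalization or the tunicamycin arrays fitted alone. Untreated PERK-/- cells had 9 of these genes lower and 0 higher than wild type, in the same direction as Hspa5, Hsp90b1 and Manf. That was 13 of the list's 35 probe sets, where 4.99% of all passed. With tunicamycin 14, 10 and 1 of the 35 passed in wild-type, ATF4-/- and PERK-/- cells, where 2.81%, 1.15% and 0.231% of all did. The difference from the wild-type response passed for 0 of the 35 in ATF4-/- and 0 in PERK-/- cells, with medians of 0.06 and -0.34. Counts of 0 are near the shares of all probe sets, 0.0543% and 0.461%. In PERK-/- cells 29 of the 35 had an estimate above 0, where 50.17% of all tested probe sets did.

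In the SS line the other ER folding genes moved both ways. At 4 h 4 rose and 3 fell, and at 8 h 6 rose and 3 fell. That was 7 and 12 of the list's 35 probe sets, where 8.98% and 12.4% of all probe sets passed. Those that rose at 8 h included Ero1a (97871_at, 1.82 ± 0.18), which encodes an ER oxidase, Ero1b (1.47 ± 0.23), Dnajc3 (102415_r_at, 1.39 ± 0.25) and Dnajb9 (96680_at, 1.34 ± 0.28). Of the tested Dnajc3 probe sets, 102415_r_at alone passed at 8 h. The Dnajb9 call was lost with quantile normalization (1.37, adjusted p = 0.0579 in limma). Its other probe set, 96679_at, ran from 1.23 to 1.72 when 1 array was left out. Those that fell were Pdia6 (94208_at, -0.96 ± 0.22), Dnajb11 (-0.48 ± 0.15), another BiP co-chaperone, and Fkbp7, a prolyl isomerase. Dnajb11 lost its call without any 1 of the 4 arrays and Pdia6 without either second array, the second untreated or the second treated one. Without the second untreated SS array the list's 7 called probe sets at 4 h became 1, and its 12 at 8 h became 5. Without either treated array they became 2 at 4 h and 7 at 8 h. A part of the ER folding genes that rose with tunicamycin also rose with the kinase alone, and another part fell, while Hspa5, Hsp90b1, Creld2 and Manf did not pass in either direction. For so few probe sets, a count of 0 is near the shares of all probe sets, 8.98% at 4 h and 12.4% at 8 h.

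Genes linked to ATF4 were counted on the same arrays. Of 18 such genes tested, 11 rose in wild-type cells with tunicamycin, 3 in ATF4-/- and 1 in PERK-/- cells, and 0 fell. These were 12, 3 and 1 of 23 probe sets, where 2.81%, 1.15% and 0.231% of all probe sets passed. The PERK-/- count was 0 with quantile normalization or the tunicamycin arrays fitted alone. The test of the difference from the wild-type response passed for 0 of 23 in ATF4-/- cells (median -0.82). In PERK-/- cells that difference passed for 2 of 23 (median -0.55). Of all probe sets, 0.0543% and 0.461% passed these 2 tests, and a count of 0 is near the first share. In the SS line 7 rose at 4 h and 12 at 8 h, with 0 lower. These were 9 and 15 of the 23 probe sets, against 8.98% and 12.4% of all probe sets. In the AA line 0 passed at either time, where 0% of all probe sets passed. Without the second SS array at 8 h the 15 called probe sets of this list became 9. Chaperones of the cytosol served as a further comparison: of 21 genes tested, 0 passed in any of the 3 tunicamycin responses, with medians of 0.05, -0.04 and -0.03. For 30 probe sets a count of 0 is near the shares of all probe sets, 2.81%, 1.15% and 0.231%. One probe set passed in wild-type cells without the first untreated array, and one in PERK-/- cells without the second treated array. Both lists and the ER folding list were drawn up with earlier results of these data known, so their counts are descriptions.

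**Figure D5:**
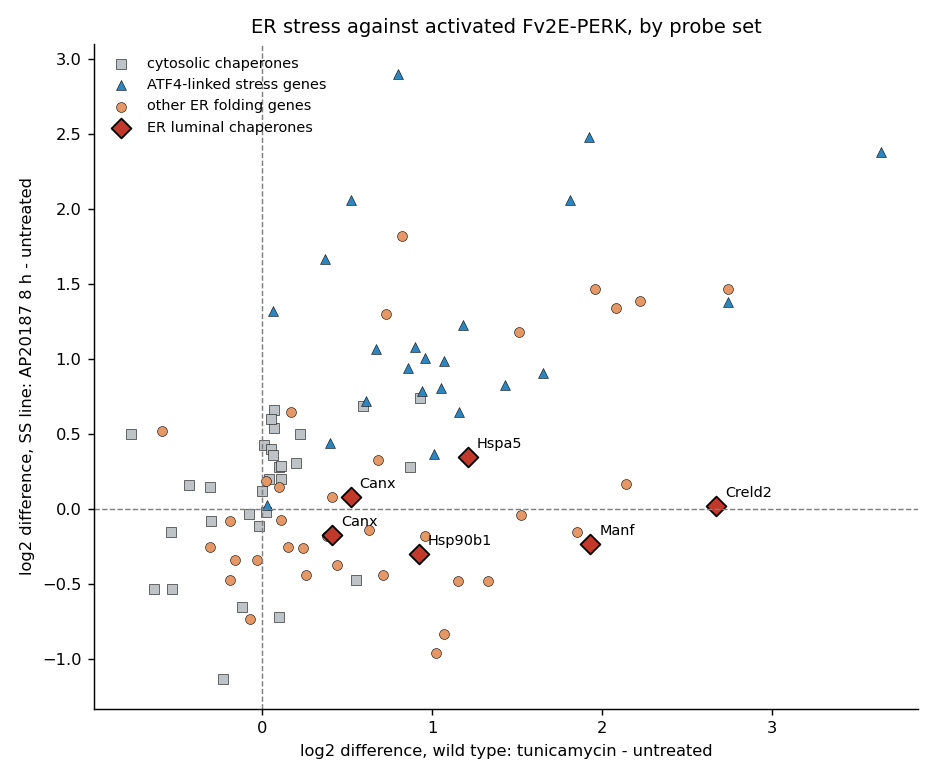
Log2 difference with tunicamycin in wild-type cells (horizontal axis) against log2 difference with AP20187 for 8 h in SS cells (vertical axis), 1 symbol per probe set; diamonds are the tested ER luminal chaperones, circles other ER folding genes, triangles ATF4-linked genes and squares cytosolic chaperones. Creld2 lies at 2.67 and 0.02, Manf at 1.93 and -0.23, and Ddit3, the triangle farthest to the right, at 3.64 and 2.38.

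The ER stress response element was also looked up in other genes, in a list added after the data were seen. Besides the 5 chaperones, 32 genes had an exact copy, of which 7 had a probe set and 6 could be tested. With tunicamycin 3 of these 6 rose in wild-type and in ATF4-/- cells, namely Dnajc3, Ero1b and Pdia6, and 0 passed in PERK-/- cells (3 probe sets with the smaller pseudocount). Of the list's 10 probe sets 7, 7 and 0 passed in wild-type, ATF4-/- and PERK-/- cells, where 2.81%, 1.15% and 0.231% of all did. The 7 belong to these same 3 genes, which are also on the ER folding list. In PERK-/- cells 8 of the 10 had an estimate above 0, with a median of 0.74. The difference from the wild-type response passed for 0 of 10 in ATF4-/- and in PERK-/- cells (0.0543% and 0.461% of all). In the SS line at 8 h Dnajc3 (probe set 102415_r_at alone) and Ero1b rose while Pdia6 fell. Hspa5, Hsp90b1 and Creld2, which also hold the element and rose with tunicamycin in wild-type cells, had no called change there. For so few probe sets, that is near the 12.4% of all probe sets that passed.

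Across the 12 tunicamycin arrays log2 values of Hspa5, Hsp90b1, Creld2 and Manf correlated with each other at 0.882 (Creld2 and Hsp90b1) to 0.974 (Creld2 and Manf). Canx, as the mean of its probe sets, correlated with these 4 at 0.701 to 0.770, and Calr and Hyou1 were not included. The points share treatments and arrays, so these are descriptions. The non-members most like the mean profile of the members were Dnajc3 (102415_r_at, r = 0.988), Selenok (0.987) and Dnajb9 (96679_at, 0.985), among 6528 probe sets ranked. On the 12 Fv2E-PERK arrays the signs were mixed: Hspa5 and Hsp90b1 correlated at -0.603, and Creld2 and Manf at -0.646, while Hsp90b1 and Manf did at 0.799. The non-member most like their mean there was Hcrt, with r = 0.842.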

How the data were processed

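The members and gene lists were chosen with earlier results of these data known. The table the authors deposited holds a linear ratio per probe set, apparently set against the median of that probe set, since that median was 1 within 0.01 for 91.5% of probe sets. How images were read, summarised and scaled is not given in the sources used here. The centring of each array and the signal over background are therefore unknown. Array medians ran from 0.715 to 0.853 on tunicamycin and from 1.10 to 1.22 on Fv2E-PERK arrays. After 66 control probe sets were left out, 12422 remained, of which 10833 had 1 symbol in the platform annotation, 396 several and 1193 none. The 7369 never at 0.01 on any array were tested.

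Each ratio was raised by 0.247 (a pseudocount: the overall median over 4) before log2 was taken, so changes of low values are understated. limma 3.58.1 (R 4.3.3) fitted 12 group means with a trended prior and 12 residual degrees of freedom. Contrasts were two-sided, with Benjamini-Hochberg adjustment over 7369 probe sets and a threshold of 0.05. Fold values are ratios of group means. The fit was tested on simulated data. The text names every member probe set, Atf4, Eif2ak3, Ddit3, Dnajb9 and Herpud1, from each list up to 4 called genes with the smallest p and those that went against the rest, and the probe sets with profiles most like the members' mean. Alternatives were the median divided by 16 as pseudocount, no floor filter or one within each array set, centred array medians, quantile normalization, each array set alone, a replicate block and leaving out each array. The replicate numbers were not treated as pairs. In 30 comparisons of same-numbered arrays, deviations from group means correlated at -0.194 to 0.208, and 7 were above 0.1. A range over all groups of an array set cannot settle whether particular groups were paired.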

Additional observations from a re-analysis of the deposited data

Results flagged for a closer look

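Creld2 was the one member whose tunicamycin response differed between lines by a test of the difference itself. Its response in PERK-/- cells was smaller than in wild-type cells by a log2 difference of -1.80 (adjusted p = 0.00432, limma), between -1.99 and -1.61 when any 1 array was left out. The call was lost with quantile normalization (adjusted p = 0.173) and with the tunicamycin arrays fitted alone (0.113). The duration of treatment is stated for wild-type but not for PERK-/- cells, so time and genotype cannot be told apart.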

How the results depend on the processing

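The depth of arrays is not counted in reads, and 2 arrays a group limit the precision. The count of called member probe sets under the main setting was 4 in the wild-type and in the ATF4-/- tunicamycin response. It stayed at 4 in wild-type cells under the 7 alternatives that keep all arrays of the comparison, and lay between 3 and 4 in ATF4-/- cells. In PERK-/- cells the count of 2 became 4 with the smaller pseudocount and with array medians centred, and 0 with quantile normalization and with the array set fitted alone. The PERK-/- minus wild-type count of 1 became 0 with these last 2 settings. Quantile normalization also took untreated PERK-/- cells from 3 calls to 1, SS cells at 8 h from 0 to 1 and the AA minus SS difference at 8 h from 0 to 2. Leaving out 1 array gave 1 to 3 calls in untreated PERK-/- cells, and 0 for untreated AA against SS under all 4 choices. With the replicate block the counts were the same as without it in each of the 14 comparisons (4 in wild-type cells), and of the values given for single genes 1 lost its call, Dnajb11 in SS cells at 8 h. Some small differences changed sign, and the cause was not tested. With quantile normalization the ATF4-/- minus wild-type difference was 0.13 for Creld2 and 0.02 for Hsp90b1, the PERK-/- minus wild-type difference of Hspa5 was -0.01, and Creld2 in SS cells at 8 h was -0.10. With array medians centred this last value was -0.03, and Hspa5 in ATF4-/- minus wild type was -0.04. When 1 array was left out, ATF4-/- minus wild type ran from -0.16 to 0.19 for Hspa5, from -0.34 to 0.04 for Creld2 and from -0.07 to 0.44 for Manf. PERK-/- minus wild type ran from -0.15 to 0.20 for Hspa5. In SS cells at 8 h Creld2 ran from -0.04 to 0.07 and Manf from -0.47 to 0.02. Canx 94886_at ran from -0.04 to 1.08 in wild-type and from -0.26 to 0.05 in ATF4-/- cells with tunicamycin.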
